A study of Homo sapiens with 6 samples.

Results

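The IL-6 cytokine family is described here through 10 genes, 5 ligand genes (IL6, IL11, LIF, CLCF1 and CTF1) and 5 receptor genes (IL6R, IL6ST, IL11RA, LIFR and OSMR), among 22681 genes with counts. They were found by gene symbol, and all 10 had a row. The set was chosen with the difference between the groups already known, so it is selected on the same contrast that is described below, and the members' fold changes are a description with no test. RNA was sequenced from TPC-1-Len, human papillary thyroid carcinoma cells of the TPC-1 line that resist the kinase inhibitor lenvatinib and were held in it at 10 µM. The 3 sh-NC cultures carried a control hairpin RNA aimed at no gene, and the 3 sh-KRT15 cultures carried a hairpin against the keratin gene KRT15. All 6 cultures were resistant and drug-exposed, and the hairpins had been delivered by lipid transfection. The line is a single cell line, and no separate hairpin sequence against KRT15 is named in the labels. The cultures are labelled as biological replicates, but separate transfections are not stated, so p-values and errors cover only how far these cultures spread, which may be technical.

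Cytokines of this family act through gp130, the shared signalling receptor encoded by IL6ST. IL-6 and IL-11 first bind their own alpha receptors, encoded by IL6R and IL11RA, and then recruit gp130 pairs. LIF and cardiotrophin-1 (CTF1) signal through gp130 paired with the LIF receptor (LIFR), and oncostatin M pairs gp130 with LIFR or with the oncostatin M receptor (OSMR). CLCF1 uses the CNTF receptor with gp130 and LIFR. The receptors activate JAK kinases and mainly STAT3, and STAT3 induces SOCS3, which shuts the receptor down. IL6 and IL11 are known targets of inflammatory and stress signalling in many tumour cells.

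The stretches upstream of IL6 and IL11 are shown because these genes had the largest differences of the family. RefSeq promoter windows (GRCh38.p14) were matched for 7 of the 10 members, as 10 windows, and none was matched for LIF, CLCF1 or CTF1. Each line gives the 250 bases before the start site, 5′ to 3′ on the gene's strand, at chr7:22726950-22727199 (plus strand) for IL6 and chr19:55370464-55370713 (minus strand) for IL11. Capitals mark a match to the kB motif in IL6 and to the AP-1 motif in IL11.
IL6: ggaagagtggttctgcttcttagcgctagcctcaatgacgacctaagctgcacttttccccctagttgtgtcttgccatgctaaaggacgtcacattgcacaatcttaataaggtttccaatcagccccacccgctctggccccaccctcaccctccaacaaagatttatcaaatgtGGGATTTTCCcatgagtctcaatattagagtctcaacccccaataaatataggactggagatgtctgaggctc
IL11: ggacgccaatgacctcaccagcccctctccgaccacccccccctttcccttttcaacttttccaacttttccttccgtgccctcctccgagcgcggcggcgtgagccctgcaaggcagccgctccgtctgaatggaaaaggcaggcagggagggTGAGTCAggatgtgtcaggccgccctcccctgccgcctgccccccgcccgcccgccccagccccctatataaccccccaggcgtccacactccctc

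The 6 motifs described here were searched on both strands of these 250 bases. The kB match in IL6 lies at positions -73 to -64 before the start site, and 5.21% of 35116 windows of the same length hold that motif. The AP-1 match (TGANTCA) in IL11 lies at positions -96 to -90, and 6.57% of windows hold it. The STAT motif (TTCNNNGAA) was found in 2 of the 3 LIFR windows, against 6.57% of all windows, and in none of the windows of IL6, IL11, IL6R, IL6ST, IL11RA and OSMR. The C/EBP motif (TTNNGNAA) was found in IL6, IL6R, OSMR and 2 of the 3 LIFR windows, and 33.2% of windows hold it. The TATA motif (TATAAA) occurred in 1 LIFR window, on both strands at overlapping positions, against 10.7% of windows, and the CRE core (TGACGTCA) in none, against 1.65%. The IL6ST window and both IL11RA windows held none of the 6. A match is a stretch of letters and no evidence of binding, and no binding was measured.

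Libraries held 36286059 to 41343780 counted reads. KRT15 had 1040, 1137 and 1284 reads in sh-NC and 1024, 1044 and 1005 in sh-KRT15, and its log2 fold change was −0.38 ± 0.10 (SE, edgeR quasi-likelihood test, Benjamini-Hochberg adjusted p = 0.00465). Of the thyroid markers, PAX8 (375 ± 2.92 CPM in sh-NC, SD, n = 3) and FOXE1 (14.6 ± 1.37 CPM) were present, TSHR and NKX2-1 had no more than 1 read in all, and SLC5A5 had no row. TG had 170 reads in sh-NC and 100 in sh-KRT15 (log2 fold change −0.97 ± 0.39, SE, adjusted p = 0.0512). The epithelial markers EPCAM, CDH1 and KRT19 were near 0, while KRT18, KRT7 and KRT8 were present. KRT18 rose (log2 fold change 0.89 ± 0.07, SE, adjusted p = 1.37e-08). The 6 epithelial markers summed to 146.7 to 160.5 CPM in sh-NC and 247.6 to 259 CPM in sh-KRT15. Most of that rise was KRT18, at 115.9 CPM in sh-NC and 214.6 CPM in sh-KRT15. KRT7 (log2 fold change −0.03) and KRT8 (0.20) did not pass the threshold. Summed over the 7 fibroblast markers, the level was 18.1 to 23.4 CPM in sh-NC and 7.87 to 8.57 CPM in sh-KRT15, with LUM and COL1A1 lower, PDGFRB higher, and DCN, COL1A2 and COL3A1 near 0 in both groups. Of 8 leukocyte markers 7 had a row, and they summed to 4.52 to 5.64 CPM in sh-NC and 1.42 to 1.76 CPM in sh-KRT15. Most of that sum was CSF1R, at 3.54 CPM in sh-NC and 0.862 CPM in sh-KRT15. The pan-leukocyte gene PTPRC had 43 reads in sh-NC and 0 in sh-KRT15, LYZ had 58 and 6, and CD3E had 4 and 1. In the other direction, ITGAM went from 38 to 53 reads, CD14 from 19 to 20 and CD163 from 1 to 6. The fibroblast and leukocyte sums were lower in sh-KRT15 and the epithelial sum was higher, and their part in the results was not tested. Endothelial markers summed to no more than 1.78 CPM in any library.

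IL6, the founding cytokine of the family, was by far the most abundant member and stood far lower in sh-KRT15. It had 2488, 2494 and 2644 CPM (read counts relative to library size, TMM-scaled) in the 3 sh-NC libraries and 398, 408 and 416 CPM in the 3 sh-KRT15 libraries. The groups were far apart and each was tight, at 2542 ± 88.5 CPM and 407 ± 9.25 CPM (SD, n = 3). The log2 fold change was −2.64 ± 0.07 (SE), a 6.24-fold difference in mean CPM. IL6 took 0.244 to 0.258% of all reads in sh-NC and 0.0409 to 0.0424% in sh-KRT15. By mean CPM it ranked 27 among all genes in sh-NC and 335 in sh-KRT15. In bulk RNA, fewer cells that express a gene and less of its RNA per cell cannot be told apart.

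IL11, a cytokine known for its role in fibrosis and bone turnover, had the largest fold difference of the 10. Its level was 132, 145 and 151 CPM in sh-NC and 12.5, 13.6 and 13.7 CPM in sh-KRT15. No sh-KRT15 library came near the sh-NC range, and the mean CPM differed 10.7-fold. The log2 fold change was −3.42 ± 0.09 (SE), and by the size of the fall IL11 ranked 73 among the 14356 genes tested, while IL6 ranked 160.

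LIF, the leukaemia inhibitory factor that maintains stem cells in culture, was lower by about 2-fold. It stood at 117, 117 and 123 CPM in sh-NC and at 54.2, 55.1 and 59.6 CPM in sh-KRT15. The groups were again separate, and the log2 fold change was −1.08 ± 0.07 (SE).

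CLCF1, a ligand of the CNTF receptor, differed far less. Its 3 sh-NC libraries had 11.9, 14.4 and 14.3 CPM and its 3 sh-KRT15 libraries 10.5, 11.2 and 9.74 CPM. The lowest sh-NC library lay just above the highest sh-KRT15 library, and the log2 fold change was −0.37 ± 0.12 (SE). CLCF1 no longer passed the threshold of the fit without sh-NC replicate 2 (−0.32) or 3 (−0.33), or without sh-KRT15 replicate 1 (−0.36) or 3 (−0.32).

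CTF1, the cardiotrophin gene, was barely detected and could not be placed. The sh-NC libraries had 29, 1 and 22 reads and the sh-KRT15 libraries 24, 9 and 6. The groups overlapped, with 1 sh-NC library below all others, and the log2 fold change of −0.62 ± 0.77 (SE) ran from −1.41 to −0.04 when 1 library was left out. CTF1 stayed under 1 CPM in every library, and no difference was resolved beyond the spread between libraries.

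**Figure D1:**
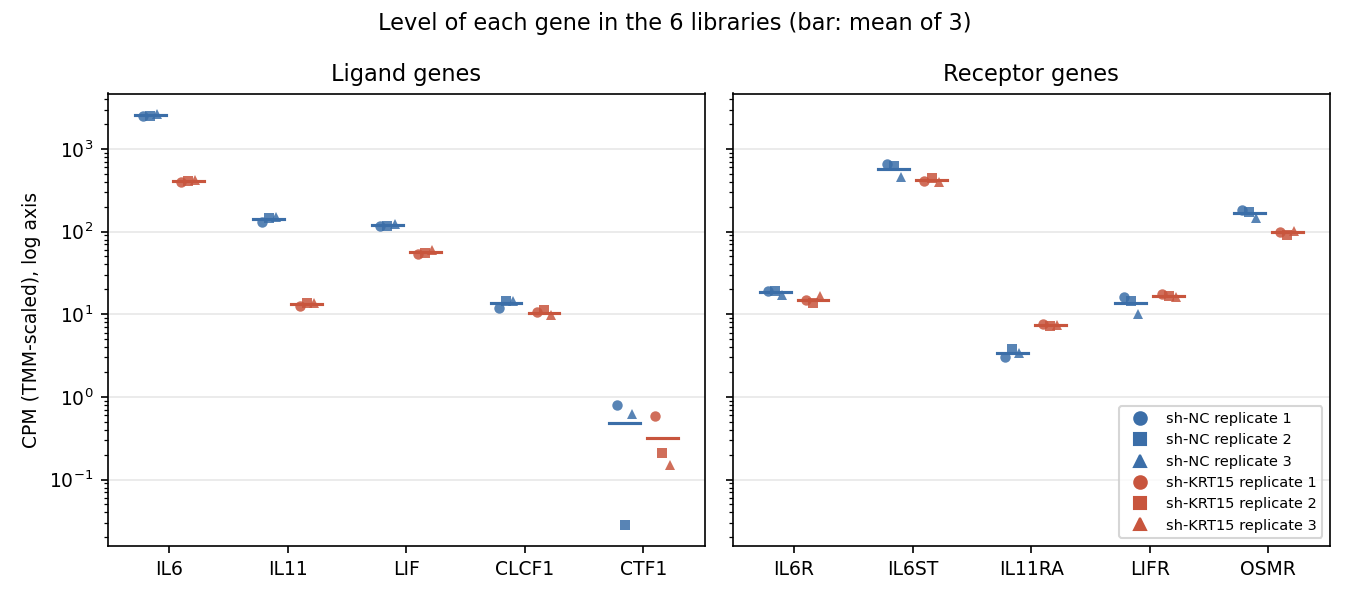
Level of each ligand gene (left) and receptor gene (right) in CPM on a log axis, with 1 symbol per library and a bar at the mean of 3. For IL6, IL11 and LIF the sh-KRT15 libraries (red) lie far below the sh-NC libraries (blue), for IL11RA they lie above, and for CTF1 and LIFR the groups overlap.

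Receptor genes differed less than IL6 and IL11, and not all in 1 direction. OSMR, the signalling chain for oncostatin M and, with IL31RA, for IL-31, was lower in sh-KRT15. It had 183, 172 and 147 CPM in sh-NC and 100.0, 91.1 and 102 CPM in sh-KRT15. The ranges were separate, and the log2 fold change was −0.78 ± 0.08 (SE).

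IL6ST, which encodes gp130, was the most abundant receptor gene and was lower by a smaller margin. Its level was 658, 619 and 462 CPM in sh-NC and 413, 445 and 403 CPM in sh-KRT15. The groups did not overlap, but sh-NC replicate 3 stood much nearer to the sh-KRT15 libraries than to the other sh-NC libraries. The log2 fold change was −0.46 ± 0.10 (SE), and −0.18 after the trends with GC content and transcript length were removed from each library.

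IL6R, the IL-6 alpha receptor that is also shed as a soluble form, was slightly lower. It had 19.2, 19.0 and 17.3 CPM in sh-NC and 14.8, 13.6 and 16.4 CPM in sh-KRT15. The gap between the groups was narrow, and the log2 fold change was −0.31 ± 0.11 (SE). IL6R no longer passed the threshold without sh-NC replicate 1 (−0.28) or 2 (−0.29), or without sh-KRT15 replicate 1 (−0.295) or 2 (−0.24).

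IL11RA, the IL-11 alpha receptor, was the only receptor gene past the threshold in the higher direction, at about 2-fold the level in sh-KRT15. The sh-NC libraries had 109, 135 and 122 reads, or 3.01, 3.79 and 3.44 CPM, and the sh-KRT15 libraries had 312, 312 and 298 reads, or 7.62, 7.27 and 7.37 CPM. The groups were well separated, and the log2 fold change was 1.12 ± 0.17 (SE). It lay in the opposite direction to IL11 itself.

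LIFR, the receptor for LIF, overlapped between the groups. It had 16.2, 14.3 and 10.2 CPM in sh-NC and 17.7, 16.6 and 16.1 CPM in sh-KRT15. In sh-NC, replicate 1 lay within the sh-KRT15 range, replicate 2 below it and replicate 3 well below it. The log2 fold change was 0.31 ± 0.14 (SE) and did not pass the threshold. It was 0.465, past the threshold, without sh-NC replicate 1, and 0.14 without sh-NC replicate 3. Removing the trend with GC content and length gave 0.61, also past it.

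**Figure D2:**
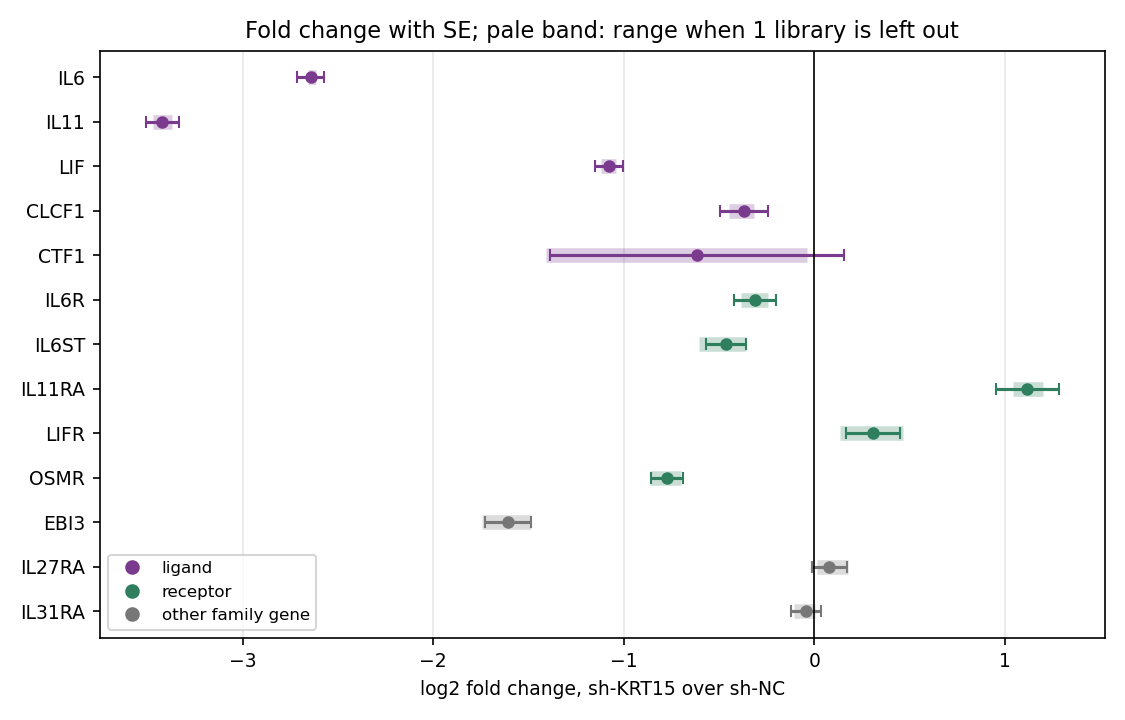
Log2 fold change of sh-KRT15 over sh-NC for the 10 members and for EBI3, IL27RA and IL31RA, with SE bars and a pale band from the lowest to the highest value when 1 library is left out. IL11 (−3.42) and IL6 (−2.64) lie farthest to the left, IL11RA (1.12) farthest to the right, and the CTF1 band is the widest.

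Set side by side, 4 of 5 ligands and 3 of 5 receptors were past the adjusted p threshold of 0.05 in the lower direction, and 1 receptor and no ligand in the higher one. Across all tested genes 45.0% were past it, 23.0% lower and 22.1% higher. Since the members were chosen from this contrast, nothing is read from their share. The median log2 fold change was −1.08 over the ligands and −0.31 over the receptors, beside −0.00 over all genes tested. CPM ranges did not overlap between the groups for 4 ligands and 4 receptors, as for 54.0% of tested genes. In a refit with a minimum of 1 CPM in 3 libraries, which left out the very low CTF1, the ligand median was −1.85.

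The 5 ligand genes together reached 2750 to 2933 CPM in sh-NC and 476 to 499 CPM in sh-KRT15. The receptor sum was 639 to 879 CPM in sh-NC and 545 to 574 CPM in sh-KRT15. Ligand reads thus outnumbered receptor reads in each sh-NC library and were fewer in each sh-KRT15 library. These sums are not corrected for transcript length, which is 1527 bases for IL6 and 9057 for IL6ST. Per kilobase of transcript, IL6 stayed above every receptor gene in sh-KRT15 too, at 267 against 46.4 for IL6ST, the highest of them. The change of order in reads is thus not one in transcript numbers. IL6 supplied 90.0 to 90.5% of ligand reads in sh-NC and 83.3 to 83.6% in sh-KRT15, so the ligand sum is mostly IL6. IL6ST supplied 72.2 to 77.6% of receptor reads over the 6 libraries.

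Levels of different genes were compared as RPKM, here CPM per kilobase of the longest GENCODE 29 transcript. In sh-NC the order of mean RPKM was IL6 (1665 ± 57.9, SD, n = 3), IL6ST (64.0 ± 11.5), IL11 (62.4 ± 4.25), OSMR (30.2 ± 3.33), LIF (29.9 ± 0.825), CLCF1 (7.34 ± 0.777), IL6R (3.13 ± 0.178), LIFR (1.34 ± 0.307), IL11RA (1.13 ± 0.130) and CTF1 (0.290 ± 0.243). IL6ST and IL11, OSMR and LIF, and LIFR and IL11RA were neighbours whose library ranges overlapped. In sh-KRT15 the order of mean RPKM was IL6 (267 ± 6.05), IL6ST (46.4 ± 2.44), OSMR (17.7 ± 1.06), LIF (14.2 ± 0.730), IL11 (5.82 ± 0.293), CLCF1 (5.68 ± 0.383), IL6R (2.52 ± 0.238), IL11RA (2.47 ± 0.0605), LIFR (1.66 ± 0.0839) and CTF1 (0.189 ± 0.142). There IL11 overlapped with CLCF1, and IL6R with IL11RA. IL11 thus went from the level of IL6ST to that of CLCF1. With all annotated exons as the length instead, OSMR and LIF traded places in both groups, and IL11 and CLCF1 in sh-KRT15.

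**Figure D3:**
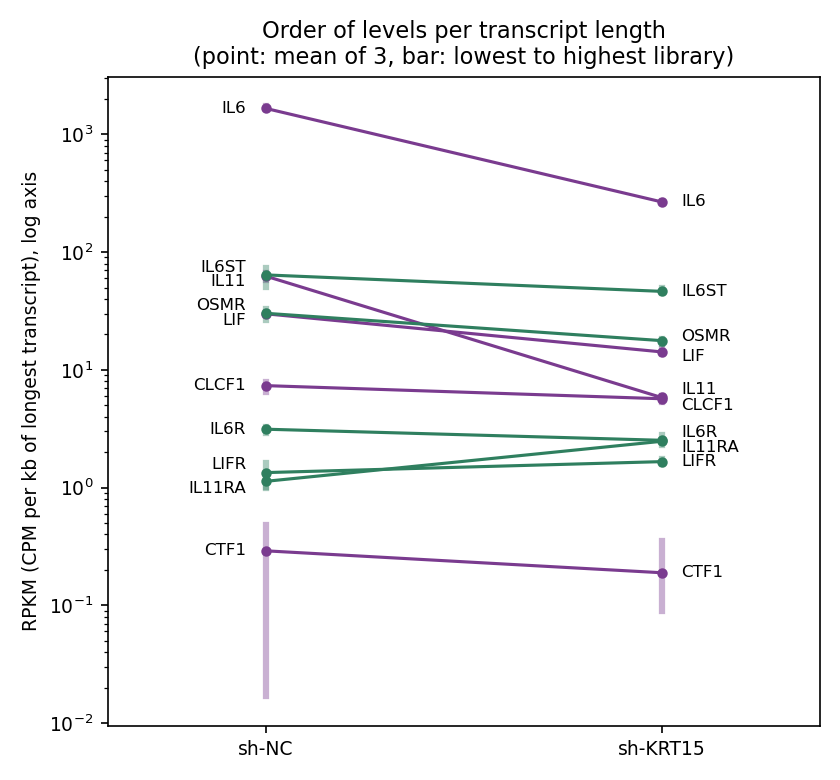
Mean RPKM on a log axis in sh-NC and sh-KRT15, joined by a line for each gene (ligands purple, receptors green), with bars from the lowest to the highest library. IL11 drops from beside IL6ST at about 62.4 to beside CLCF1 at 5.82, and IL11RA climbs past LIFR.

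IL6, IL11 and LIF were then each set against their own receptor within a library, as a ratio of RPKM. IL6 exceeded IL6R by 502 to 592 times in sh-NC and by 98.3 to 116 times in sh-KRT15. For IL11 over IL11RA the RPKM ratio was 50.4 to 57.7 in sh-NC and 2.16 to 2.47 in sh-KRT15, where a lower ligand met a higher receptor. LIF over LIFR had an RPKM ratio of 18.3 to 30.7 in sh-NC and 7.78 to 9.44 in sh-KRT15. Of the gp130 partners, OSMR exceeded LIFR in RPKM by 20.5 to 26.4 times in sh-NC and by 10.0 to 11.6 times in sh-KRT15. None of these 4 ratio ranges overlapped between the groups, while the RPKM ratio of IL6ST over IL6R did, at 17.4 to 22.4 in sh-NC and 16.04 to 21.4 in sh-KRT15. Each ratio follows from the fold changes above. These are RNA ratios, and neither secreted cytokine nor surface receptor was measured.

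LIFR and IL6ST, the members with the longest transcripts, also had the lowest GC content, at 36.2% and 36.6%. They varied most between the sh-NC libraries among the 9 members other than CTF1. In sh-NC replicate 3, log2 CPM differed from the mean of the other sh-NC libraries by −0.58 for LIFR, −0.47 for IL6ST and −0.27 for OSMR. IL6R, with a longer transcript than OSMR, differed by −0.14. For IL6, IL11 and LIF, whose transcripts are shorter, the same difference was 0.09, 0.12 and 0.07. Across 13656 genes, which are not independent replicates, the deviation of sh-NC replicate 3 had a Spearman correlation of −0.446 with transcript length, and the deviation of sh-NC replicate 1 one of 0.393. With GC content the deviations of these libraries correlated at 0.204 and −0.181. Within sh-KRT15 these length correlations lay between −0.0954 and 0.105, but the correlation with GC content was −0.466 for replicate 2 and 0.44 for replicate 3. Across the same genes the log2 fold change between the groups correlated with GC content at 0.254 and with length at −0.00826. The part of these trends in the values of IL6ST, LIFR, OSMR and IL6R was not tested beyond the refit with both trends removed, which gave −0.76 for OSMR and −0.45 for IL6R. In that refit the ligands stood at −2.47 for IL6, −3.49 for IL11, −1.20 for LIF and −0.40 for CLCF1.

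**Figure D4:**
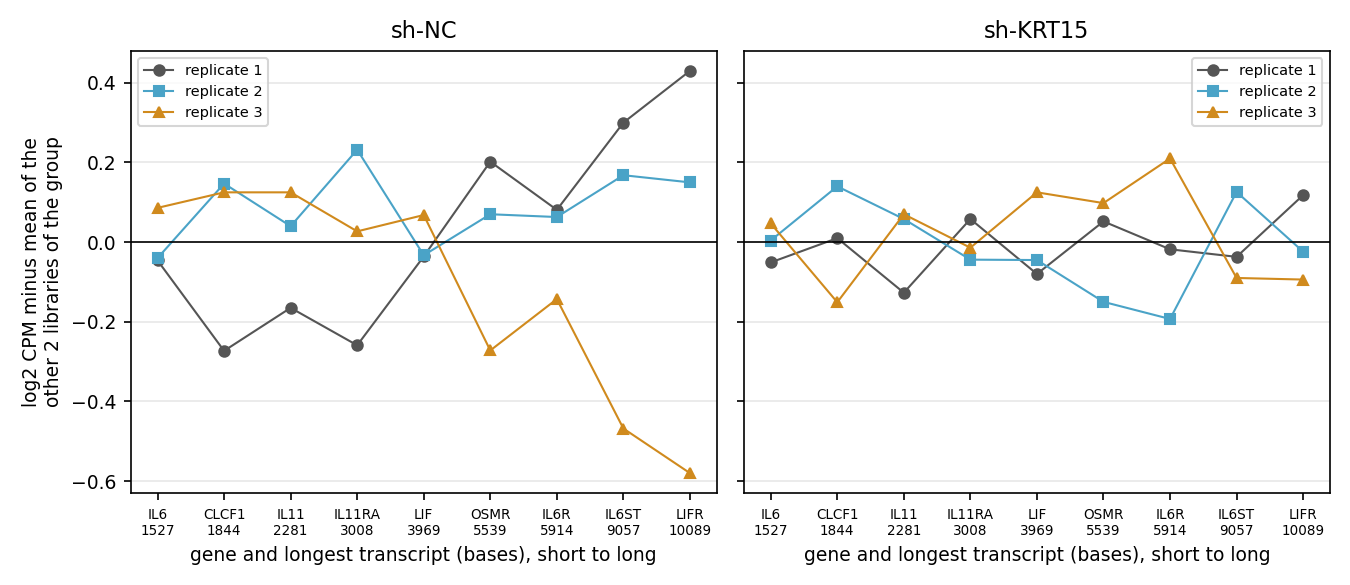
Log2 CPM of each library minus the mean of the other libraries of its group, for 9 members ordered by their longest transcript (CTF1, with very few reads, is left out). In sh-NC replicate 3 the value falls to −0.47 for IL6ST and −0.58 for LIFR at the long end, while no sh-KRT15 library leaves the range from −0.193 to 0.21.

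Several family genes are chromosomal neighbours (GRCh38, GENCODE 29). Of these, LIFR did not pass the threshold, and OSM and CNTFR had too few reads to be tested. LIFR (chromosome 5, 38474963 to 38608354, minus strand) and OSMR (38845858 to 38945596, plus strand) lie 238 kb apart, with log2 fold changes of 0.31 and −0.78. IL6ST (55935095 to 55994993, minus strand) and IL31RA (55851379 to 55922853, plus strand) lie 12.2 kb apart, and IL31RA stood at −0.04 ± 0.08 (SE). With the trends with GC content and length removed, IL6ST stood at −0.184 and IL31RA at 0.032. LIF and OSM lie 15977 bases apart on chromosome 22, and OSM had 1 read in all. IL11RA and CNTFR lie 60.6 kb apart on chromosome 9, and CNTFR had 4 reads, all in sh-NC.

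Overlapping genes may touch a few of these values. The strand setting of the counting is not given in the sources used here, and no strand setting would separate genes on the same strand. IL6 (chromosome 7, 22725884 to 22732002, plus strand) shares 428 exonic bases, 20.7% of its own, with the antisense gene IL6-AS1. IL6-AS1 had 758 reads in sh-NC and 144 in sh-KRT15 (log2 fold change −2.61 ± 0.30, adjusted p = 3.92e-06), against 272702 and 50638 reads of IL6. IL11RA (chromosome 9, 34650702 to 34661892, plus strand) shares 334 exonic bases, 7.82% of its own, with GALT on the same strand, and 410 bases, 9.6%, with the gene model AL162231.3 on that strand. GALT, a galactose metabolism gene, rose by 0.37 ± 0.10 (SE, adjusted p = 0.00724), less than IL11RA. IL6ST shares 797 exonic bases, 8.58% of its own, with the antisense gene model AC008914.1. LIFR overlaps LIFR-AS1, which had 43 reads in sh-NC and 59 in sh-KRT15, against 1456 and 2086 for LIFR. CLCF1 shares 61 exonic bases, 3.09% of its own, with the gene model AP003419.1 on the same strand. OSMR shares 229 bases, 3.19%, with RICTOR on the opposite strand. LIF shares 92 bases with the antisense gene LIF-AS1 and 175 with the antisense gene model AC004264.1.

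The genes whose profile over the 6 libraries lay nearest to a member were found by Euclidean distance of centred log2 CPM among 12421 genes at 1 CPM or more on average. For members with a large group difference this distance mostly follows that difference. Similar fold changes among the nearest genes are therefore built in, and shared regulation was not tested. Nearest to IL6 were IL24, GPR37L1, LCP1, TRAF1 and TNFAIP6, at log2 fold changes of −2.67 to −2.79. IL24, another cytokine gene, lay closest of these at a distance of 0.0863. The nearest profiles to IL11 were CCL3L3, TFPI2, CXCL8, CTSS and MMP1, at −3.07 to −3.47. For LIF they were FTH1, DNAJB9, ARID3A, MYL9 and FTL, at −1.01 to −1.15. Reads of CCL3L3, FTH1 and FTL may be shared with near-identical copies.

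Of the 9 other family genes, 4 were expressed enough to be tested, and 1 changed, beside 45.0% of all tested genes. EBI3, the shared subunit of IL-27 and IL-35, fell from 35.2, 35.4 and 38.8 CPM in sh-NC to 10.1, 11.6 and 14.2 CPM in sh-KRT15. Its groups did not overlap (log2 fold change −1.61 ± 0.12, SE, adjusted p = 9.44e-09). Its IL-27 partner gene IL27 had 1 read in sh-NC and 0 in sh-KRT15. The IL-27 receptor gene IL27RA stood at 0.08 ± 0.09 (SE, adjusted p = 0.523) and IL31RA at adjusted p = 0.683. OSM, IL27 and CNTFR had no sh-KRT15 read, which allows up to 0.0246 CPM over that group, counting error only, and CNTF and IL31 had no row in the table used here. OSM, a ligand of OSMR, and CNTFR, the alpha receptor for CLCF1, were thus at or near 0 in these cells.

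Of 17 tested genes of JAK-STAT signalling, adaptors and shedding proteases, 3 rose, 4 fell and 10 did not pass, with a median log2 fold change of −0.07. Without sh-KRT15 replicate 1, or without sh-KRT15 replicate 3, the number that rose was 1. SOCS3, the STAT3-induced inhibitor of gp130, fell from 73.5, 76.1 and 76.2 CPM to 40.96, 36.01 and 41.57 CPM (log2 fold change −0.93 ± 0.08, adjusted p = 9.59e-08). SOCS1, its relative, fell by 0.86 ± 0.20 on the log2 scale (adjusted p = 0.00203). ADAM17, a protease that sheds the IL-6 receptor, fell by 0.73 ± 0.08 (adjusted p = 1.11e-06), and the kinase gene JAK1 by 0.29 ± 0.08 (adjusted p = 0.00501).

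STAT3, the main transcription factor of the pathway, overlapped between the groups, with 133, 140 and 118 CPM in sh-NC and 151, 139 and 160 CPM in sh-KRT15. Its log2 fold change of 0.21 ± 0.08 passed narrowly (adjusted p = 0.0449). It did not pass without sh-NC replicate 1 (adjusted p = 0.0551) or 3 (0.127) or sh-KRT15 replicate 1 (0.113) or 3 (0.161), nor once the GC and length trends were removed (0.161), and its adjusted p ran from 0.0126 to 0.161 over the alternatives. TYK2, a JAK kinase gene, rose by 0.25 ± 0.08 (adjusted p = 0.0167), but not without sh-NC replicate 2 (0.0723) or sh-KRT15 replicate 1 (0.0575) or 3 (0.0711), nor once the trends were removed (0.154), over a range of 0.00381 to 0.154 in its alternatives.

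Genes that STAT3 is known to induce moved both ways. Of 20 tested targets, 5 rose, 7 fell and 8 did not pass, at a median of −0.04. The protease inhibitor TIMP1 fell by 1.10 ± 0.07 on the log2 scale (adjusted p = 3.23e-09), the angiogenic factor VEGFA by 0.69 ± 0.07 (adjusted p = 3.03e-07), BCL6 by 0.57 ± 0.11 (adjusted p = 0.000293) and JUNB by 0.37 ± 0.08 (adjusted p = 0.000928). BIRC5, the survival and mitosis gene survivin, rose by 1.45 ± 0.08 (adjusted p = 1.37e-10), and BCL2L1, an anti-apoptotic gene, by 0.32 ± 0.07 (adjusted p = 0.00115). Of 8 tested acute-phase genes, which IL-6 induces in liver, 2 rose and 2 fell. The serum amyloid genes SAA1 (0.43 ± 0.08, adjusted p = 0.000577) and SAA2 (0.55 ± 0.13, adjusted p = 0.00214) rose, and these near-identical genes may share reads. SERPINA1 (−0.56 ± 0.07, adjusted p = 4.87e-06) and CP (−1.24 ± 0.35, adjusted p = 0.00852) fell. In either direction, 7 of 17 signalling genes, 12 of 20 STAT3 targets and 4 of 8 acute-phase genes were past the threshold, beside 45.0% of all tested genes, and the lists were not tested for enrichment.

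**Figure D5:**
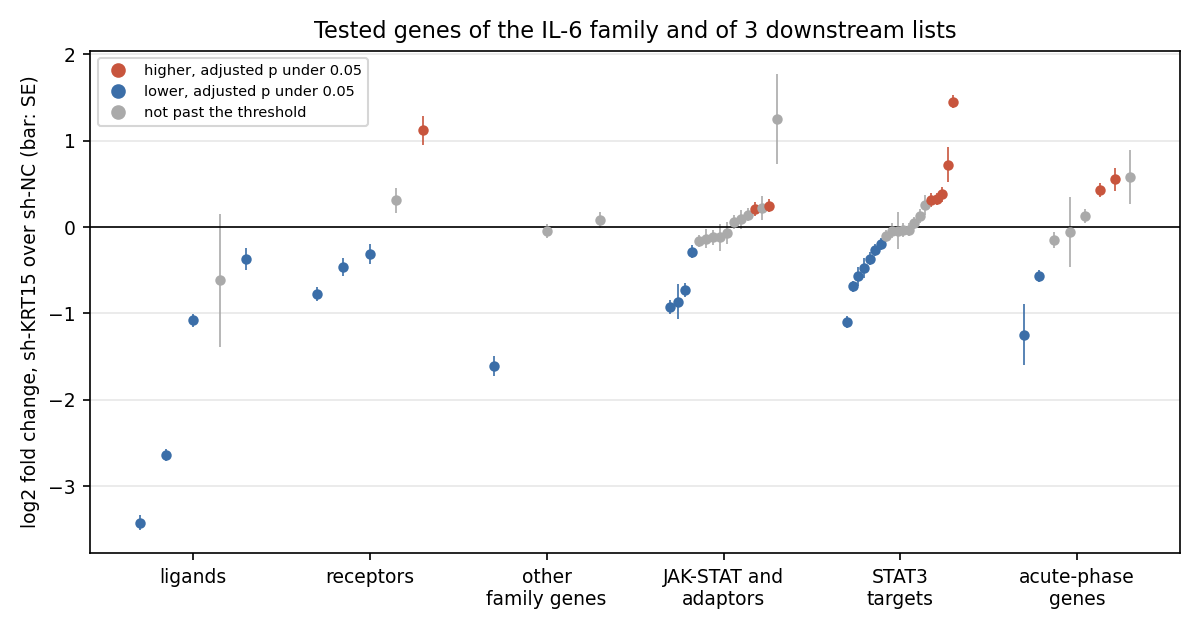
Log2 fold change with SE of tested genes, by list, without the genes not reported here, with red for higher and blue for lower at an adjusted p under 0.05 and grey for the rest. The ligands reach −3.42, while the JAK-STAT list, the STAT3 targets and the acute-phase genes lie on both sides of 0.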

How the data were processed

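The authors deposited a table of whole-number counts, with 1 column for each library, on genome build GRCh38 per the submitters' processing notes. Not given in the sources used here are the aligner, the counter, the annotation and the strand setting. Members, gene lists and tests were chosen with earlier results of these data known. Groups came from the sample titles. Genes were kept by filterByExpr (minimum count 10, minimum total 15), which left 14356 genes, and all 10 members passed. Libraries were scaled by TMM, and edgeR 4.0.16 (R 4.3.3) fitted its quasi-likelihood test with group as the only term. P-values were adjusted by Benjamini-Hochberg over all tested genes. The fit was tested on simulated data. CPM uses TMM-scaled totals, RPKM divides it by the longest transcript of GENCODE 29, and 95.1% of tested genes had a length. No pair of libraries agreed within sampling noise (chi-square per degree of freedom at least 6.05). Named genes are the members, KRT15, up to 6 called genes per list with the smallest p, and the 5 nearest profiles of IL6, IL11 and LIF. STAT3, IL6-AS1, GALT, LIFR-AS1 and the family genes that did not pass were named after their values were seen. Alternatives were size factors of DESeq2 1.42.0, DESeq2 itself, total-count scaling, other filters, a replicate block, trends with GC content and length taken out, and leaving out each library. A few genes of the lists are counted in them but are not reported here by name.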

Additional observations from a re-analysis of the deposited data

How the results depend on the processing

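IL6, IL11, LIF, IL6ST, IL11RA and OSMR kept their direction and their side of the threshold under all 13 alternatives run. CTF1 was left out by the minimum of 1 CPM in 3 libraries, which moved the ligand median from −1.08 to −1.85, and it passed under none of the 12 others. CLCF1 and IL6R each lost the threshold under 5 alternatives, total-count scaling (−0.31 and −0.25) among them. LIFR gained it under 4, so that the number of receptors called higher went from 1 to 2 with no filter on low counts, after trends with GC and length were taken out and with the replicate block, and ranged from 1 to 2 when 1 library was left out. The number of JAK-STAT genes called higher ranged from 1 to 3 when 1 library was left out. IL27RA, not called, turned to −0.032 with the trends taken out, and IL31RA, not called, to 0.032 with the trends taken out, to 0.016 with total-count scaling and to 0.003 without sh-NC replicate 1 (range −0.107 to 0.003 when 1 library was left out). The cause of these shifts was not tested. Replicate numbers did not pair the samples: deviations of same-numbered libraries correlated at 0.0188, −0.00742 and 0.0462, and not every library correlated best with its own number. With the replicate block 6733 genes were called in place of 6464. Total-count scaling moved the median of all genes to 0.06. OSM, IL27 and CNTFR had too few reads for a comparison at this depth.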
